A study of Mus musculus with 18 samples.

Results

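RNA carried by light polysomes was set against RNA of the whole lysate in 4T1 cells in which Dap5 was knocked down. By sample title, 3 libraries were shDap5 light polysomes and 3 were shDap5 input, together 6 of the 18 libraries of the series. 4T1 is a mammary carcinoma line of the BALB/c mouse strain labelled TNBC, for triple-negative breast cancer. Every group carried a hairpin and received doxycycline at 2 µg/ml for 6 days, the shDap5 groups a hairpin against Dap5 and the NSi groups a control hairpin. Lysates were spread on sucrose gradients, the light fractions were combined, and polyadenylated RNA was sequenced; input is unfractionated RNA. The labels do not say how many ribosomes the light fractions hold, how many hairpins or clones were used, or whether libraries of a group are separate cultures, so the p-values rest on a spread that may be only technical. NSi light, NSi input and shDap5 heavy polysomes (3 libraries each) are used only to place the shDap5 light values.

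A polysome is an mRNA with several ribosomes on it, and a sucrose gradient sorts such complexes by size. A long reading frame has room for many ribosomes and a short one for few, so fractions of a gradient differ in the lengths of the mRNAs they hold as well as in how busily each is read. DAP5, the product of Eif4g2, is a relative of the scaffold eIF4G that lacks the site for the cap-binding protein eIF4E and works with eIF3d in a second route of initiation.

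Total counts were 30940897 to 36885734 in the light libraries and 49130045 to 69233705 in the inputs. Carcinoma markers fitted the label: Krt18 stood at 1970 to 3501 CPM on light polysomes and 919 to 1366 CPM in input, and Epcam at 184 to 234 and 397 to 451 CPM (CPM are counts divided by the scaled size of the library in units of a mega-count). The basal keratin Krt5 and the progesterone receptor Pgr were at or near 0, while Esr1 (12.5 to 16.1 on light, 19.1 to 24.0 CPM in input) and Erbb2 were detected. Of 7 lymphocyte markers all stood under 1 CPM in all 6 libraries, as did 6 of 7 endothelial, 5 of 6 fibroblast, 4 of 5 adipocyte and 4 of 7 macrophage markers. C1qa, Lum and Pgr had no count in these libraries. Summed macrophage markers ran from 55.4 to 105.4 CPM on light polysomes and from 36.0 to 73.9 CPM in input, mostly Cd68 and Cd14; their part in the results was not tested. Less RNA of a kind per cell and fewer cells that hold it cannot be told apart here, and CPM values are shares of a library, not amounts on polysomes.

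Light polysomes of the knockdown cells differed from input in more than every second gene. Of 15072 genes tested, 8016 (53.2%) were called at an adjusted p under 0.05: 3979 (26.4%) higher and 4037 (26.8%) lower on light polysomes. Counts of list members on light polysomes below are to be read against these shares. Of all genes tested, 2442 (16.2%) were called and at least 2-fold higher, and 1886 (12.5%) called and at least 2-fold lower. The middle 50% of genes lay between -0.66 and 0.76 on the log2 scale, with a median of -0.0037. Scaling by library totals alone moved this median to -0.18 and the split to 3145 higher and 4913 lower, so all changes below are relative to the body of genes. The 3 light and 3 input libraries did not overlap in 8870 genes (58.9%).

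The hairpin target was low in every knockdown library. Eif4g2 stood at 429, 311 and 274 CPM in shDap5 light and 592, 340 and 671 CPM in shDap5 input, against 1315, 983 and 769 CPM in NSi light and 798.7, 759 and 852 CPM in NSi input. All 6 shDap5 values lie below all 6 NSi values. Within the knockdown cells Eif4g2 was lower on light polysomes than in input (log2 -0.66, SE 0.26, adjusted p = 0.0371), although input 2 lies within the range of the light libraries. The call was lost when any of light 2, light 3, input 1 or input 3 was left out (adjusted p 0.0962 to 0.174).

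Of the genes that rose on light polysomes, 4 with very short reading frames are printed here whole, chosen for their shortness, because the differences are then set against coding length. They are mouse coding sequences from GENCODE vM21 on GRCm38, 5′ to 3′, with the start and stop codons in capitals; coordinates span start to stop codon with the introns between.
Rpl41, chr10:128548387-128548960, minus strand, 25 residues in 3 coding exons: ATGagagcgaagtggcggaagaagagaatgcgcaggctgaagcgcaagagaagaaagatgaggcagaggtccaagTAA
Tmsb10, chr6:72957618-72958012, minus strand, 44 residues in 2 coding exons: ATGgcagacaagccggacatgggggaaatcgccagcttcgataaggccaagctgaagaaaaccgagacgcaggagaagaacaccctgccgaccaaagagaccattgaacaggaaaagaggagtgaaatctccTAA
Atp5e, chr2:174462503-174463996, minus strand, 52 residues in 2 coding exons: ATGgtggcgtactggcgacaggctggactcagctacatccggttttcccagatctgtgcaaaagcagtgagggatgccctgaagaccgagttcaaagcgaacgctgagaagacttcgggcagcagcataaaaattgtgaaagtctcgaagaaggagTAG
Mt2, chr8:94172848-94173427, plus strand, 61 residues in 3 coding exons: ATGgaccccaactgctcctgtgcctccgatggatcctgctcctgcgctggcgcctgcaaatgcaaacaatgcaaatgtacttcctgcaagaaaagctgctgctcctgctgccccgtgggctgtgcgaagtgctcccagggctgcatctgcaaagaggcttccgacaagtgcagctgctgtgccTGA

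Rpl41 encodes a basic peptide of the large ribosomal subunit, Tmsb10 a small actin-binding thymosin, Atp5e the epsilon subunit of the mitochondrial ATP synthase, and Mt2 a cysteine-rich metal-binding metallothionein. Rpl41 stood at 1410.4, 1001 and 2475 CPM on light polysomes and at 239, 203 and 218 CPM in input (log2 2.89, SE 0.38, adjusted p = 1.41e-05). Tmsb10 stood at 287, 194 and 322 CPM on light polysomes and at 50.405, 40.6 and 49.99 CPM in input (log2 2.51, SE 0.28, adjusted p = 3.47e-06). All 3 light libraries lay above all 3 inputs for both genes, with light 2 the lowest of the light libraries. Atp5e stood at 644, 522 and 885 CPM on light polysomes and at 76.5, 73.8 and 75.5 CPM in input (log2 3.18, SE 0.29, adjusted p = 7.15e-07). Mt2 stood at 347, 84.3 and 207 CPM on light polysomes and at 2.69, 29.8 and 10.5 CPM in input (log2 3.89, SE 0.72, adjusted p = 0.000307). Mt2 had the largest rise among genes of at least 5 CPM whose groups do not overlap, and also a wide spread, input 2 being the highest input and light 2 the lowest light library. On heavy polysomes, compared with the same inputs, the log2 differences were 0.55 for Rpl41, 0.35 for Tmsb10, 1.33 for Atp5e and 2.05 for Mt2.

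**Figure D1:**
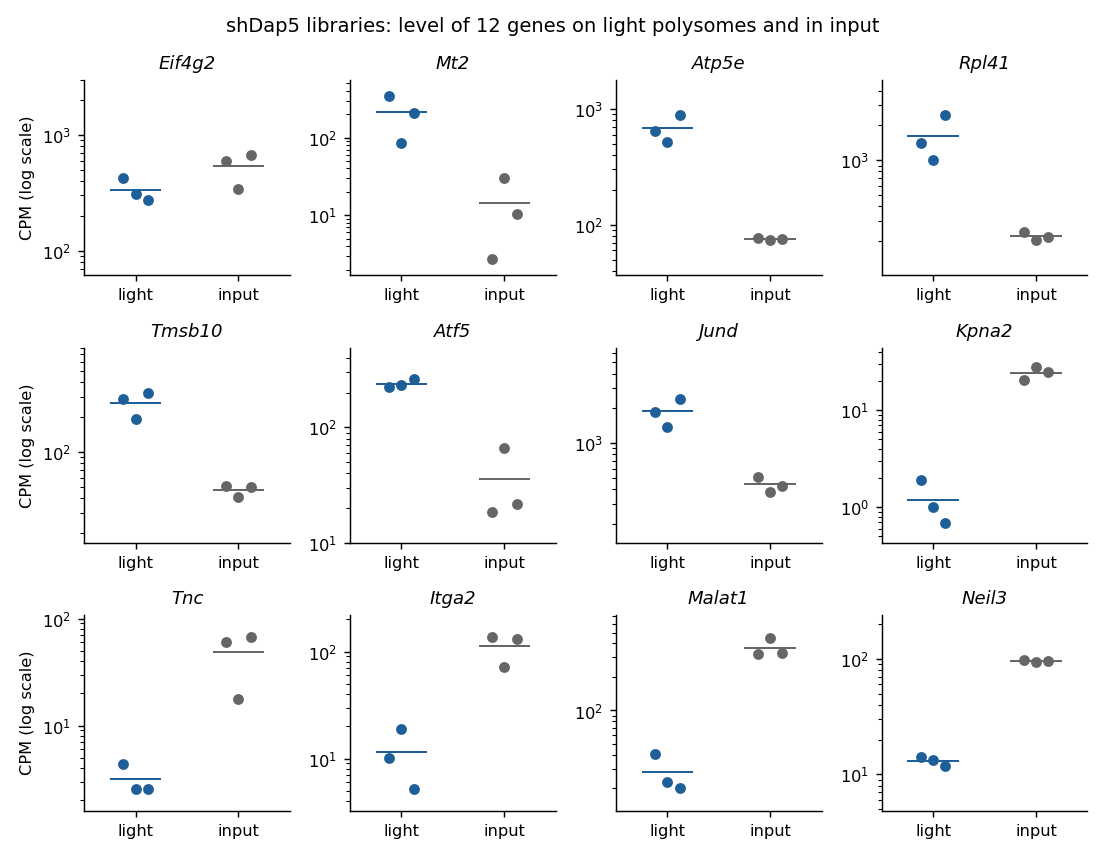
Level (CPM, log axis) of 12 genes in the 3 shDap5 light and 3 shDap5 input libraries; points are libraries and lines are means. Light lies above input without overlap for Mt2, Atp5e, Rpl41, Tmsb10, Atf5 and Jund and below it for Kpna2, Tnc, Itga2, Malat1 and Neil3, while for Eif4g2 the groups overlap.

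The difference between light polysomes and input fell with the length of the encoded protein across the whole range. Coding lengths were found for 12881 of the tested genes. Among the 257 genes for proteins under 100 residues, 212 (82.5%) were higher and 4 lower on light polysomes, with a median log2 difference of 1.77. Of 1405 genes for 100 up to 200 residues, 941 (67.0%) were higher and 45 lower, with a median of 1.06. Of 3677 genes for 200 up to 400 residues, 1387 were higher and 516 lower, with a median of 0.31. From 400 residues on, the balance was the other way. Of 4785 genes for 400 up to 800 residues, 748 were higher and 1601 lower (median -0.22). Of 2140 genes for 800 up to 1600 residues, 93 were higher and 1185 (55.4%) lower (median -0.62). Of 617 genes for at least 1600 residues, 11 were higher and 414 (67.1%) lower (median -0.95).

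The order of the 6 length classes was the same in each light library taken alone. The medians for light 1, light 2 and light 3 were 1.76, 1.40 and 1.96 in the shortest class and -1.08, -0.71 and -1.11 in the longest, so light 2 had the smallest difference at both ends. Across the 12881 genes, Spearman's rho between coding length and the log2 difference was -0.56, and -0.588, -0.491 and -0.535 for light 1, light 2 and light 3. Genes are not independent replicates, and the inputs are shared by the 3 values. In shDap5 heavy polysomes, compared with the same inputs, the medians of the 6 classes from short to long were 0.43, 0.52, 0.42, 0.07, -0.20 and -0.42, and rho was -0.30. The shortest class was thus far above input on light polysomes and only moderately above it on heavy polysomes, a difference between fractions that is given here as values without a test. The classes from 800 residues on had medians below input in both fractions. With the length of the whole transcript, rho was -0.49 for light over input and -0.38 for heavy over input. The parts of coding length and of transcript length were not tested.

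**Figure D2:**
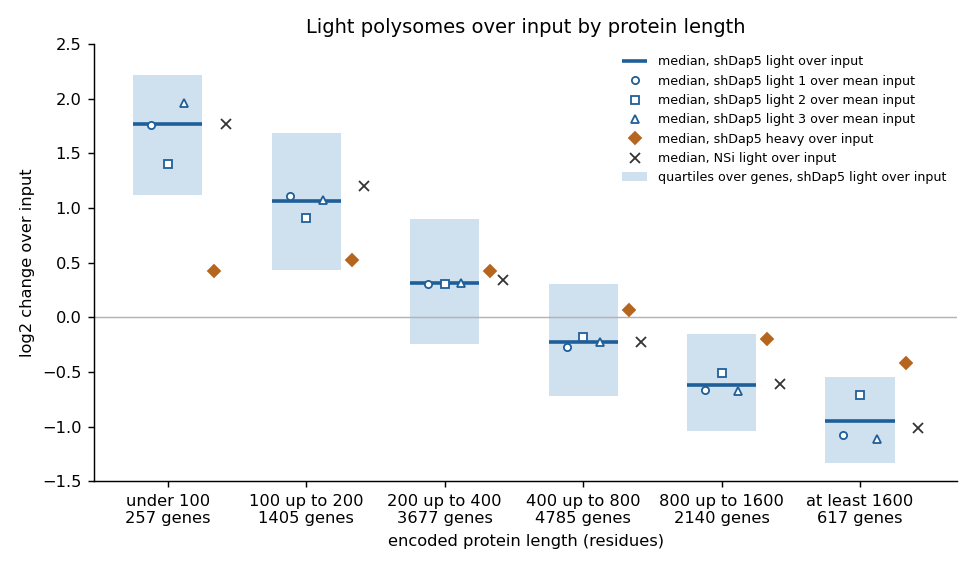
Log2 difference from input by class of encoded protein length. Boxes span the quartiles over genes and thick lines mark medians for shDap5 light over input, open symbols mark the medians of the single light libraries, diamonds those of shDap5 heavy over input and crosses those of NSi light over input. The median on light polysomes descends from 1.77 under 100 residues to -0.95 at 1600 residues and more.

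Length of the 3′ untranslated region (UTR) went with the difference as well, within classes of coding length. Coding length still varied inside each class, so the values do not separate it from the 3′ UTR. Among genes for 200 up to 400 residues, the median log2 difference was 0.65 where the 3′ UTR was under 250 nucleotides (634 genes), 0.51 from 250 up to 500, 0.46 from 500 up to 1000, 0.23 from 1000 up to 2000 and -0.04 at 2000 or more (862 genes). Among genes for 400 up to 800 residues, the same 5 medians were -0.05, -0.02, -0.14, -0.23 and -0.43. Over all genes, rho with the length of the 3′ UTR was -0.22. The fall was not particular to light polysomes. For shDap5 heavy over input rho was -0.26, and the 5 medians for 200 up to 400 residues were 0.86, 0.72, 0.59, 0.35 and -0.005.

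Other large rises at 5 CPM or more are given next. Mt1, the second metallothionein, stood at 443, 154 and 422 CPM on light polysomes and 13.8, 53.8 and 20.2 CPM in input (log2 3.54, SE 0.53). Romo1, a small protein of the inner mitochondrial membrane, stood at 266, 192 and 287 CPM on light polysomes and 37.6, 30.5 and 33.3 CPM in input (log2 2.87, SE 0.31). For both genes the groups do not overlap. Chchd10, a protein of the mitochondrial intermembrane space, was 7.54-fold higher (84.0 ± 10.5 CPM on light polysomes, 11.1 ± 6.87 CPM in input; SD, n = 3 each). Map1lc3a, a ubiquitin-like protein of autophagosomes, was 8.33-fold higher (82.6 ± 22.3 and 9.91 ± 2.47 CPM). Slpi, a secreted inhibitor of leukocyte proteases, was 7.55-fold higher (99.5 ± 51.1 and 13.2 ± 5.96 CPM), and Nrtn, the ligand neurturin, was 8.27-fold higher (20.6 ± 5.40 and 2.49 ± 0.58 CPM). Scand1, 1110008P14Rik, Hddc3, Hcfc1r1 and Bri3 also rose, by log2 differences of 2.87 to 3.40. All of these genes encode fewer than 200 residues.

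Large falls included the nuclear RNA Malat1, long proteins of the cell surface and matrix, and also shorter proteins. Among the shorter ones were Kpna2 (529 residues), Neil3 (606), Tmprss11e (423), Lancl3 (420) and Atp6v0c (155). The noncoding RNAs 3110039I08Rik and AI480526 fell by log2 differences of -3.61 and -3.32. Tnc, the matrix protein tenascin-C, stood at 4.34, 2.55 and 2.56 CPM on light polysomes and 60.4, 17.7 and 67.0 CPM in input (log2 -3.94, SE 0.50, adjusted p = 9.98e-06). Itga2, the alpha chain of a collagen receptor, stood at 10.1, 19.0 and 5.19 CPM on light polysomes and 136, 71.5 and 131 CPM in input (log2 -3.30, SE 0.49, adjusted p = 4.11e-05). Both are far below input in every light library, and input 2 is the lowest input for both. Neil3, a DNA glycosylase, stood at 14.2, 13.4 and 11.8 CPM on light polysomes and 96.7, 93.0 and 94.8 CPM in input (log2 -2.85, SE 0.15, adjusted p = 5.81e-09). Slc39a10, a zinc importer, stood at 13.6, 25.4 and 11.8 CPM on light polysomes and 198.6, 55.1 and 213 CPM in input (log2 -3.20, SE 0.54). The groups do not overlap for Neil3 and Slc39a10, and input 2 is again the lowest input for both. Col7a1, Dhx9, Ogt, Glg1, Lnpep, Lancl3, Trim56 and Tmprss11e fell by log2 differences of -2.33 to -2.99. Kpna2, an importin, had the largest fall among genes of at least 5 CPM whose groups do not overlap (log2 -4.34, SE 0.36), at 0.68 to 1.91 CPM on light polysomes and 20.7, 27.6 and 24.8 CPM in input. Atp6v0c also fell (log2 -2.86, SE 0.43). These values are uncertain where near-identical copies of a gene share reads, since the counting of such reads is not given.

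Most messengers of the cytosolic ribosome were higher on light polysomes. Of 47 large-subunit genes, 31 were higher and 3 lower (median log2 1.41), and of 33 small-subunit genes, 22 were higher and 2 lower (median 1.43), against 26.4% higher and 26.8% lower among all genes. Rps15 stood at 2583, 2185 and 3876 CPM on light polysomes and 532, 554 and 498 CPM in input (log2 2.45, SE 0.29). Rpl32 stood at 1098, 952 and 1452 CPM on light polysomes and 235, 243 and 235 CPM in input (log2 2.30, SE 0.28). In both, the inputs are close together and light 3 is the highest. Summed over the list, large-subunit genes made up 18105 to 33592 CPM on light polysomes and 7323 to 7456 CPM in input. The members were also split, after their values were seen, by their mean level in NSi input, libraries that the shDap5 comparison does not use. Of 30 genes at 100 CPM or more there, 30 were higher, by log2 1.11 to 2.89 (median 1.94), and of 50 genes under 100 CPM 23 were higher, 5 lower and 22 not called (median 0.43). The 5 lower ones were Rpl10, Rpl10a, Rpl24, Rps13 and Rps18. Ribosomal protein genes have many near-identical copies in the genome. Values of all members, high or low, are uncertain where such copies share reads, and this was not tested. On heavy polysomes, compared with the same inputs, the median was 0.76 for the 30 genes and -0.75 for the 50.

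**Figure D3:**
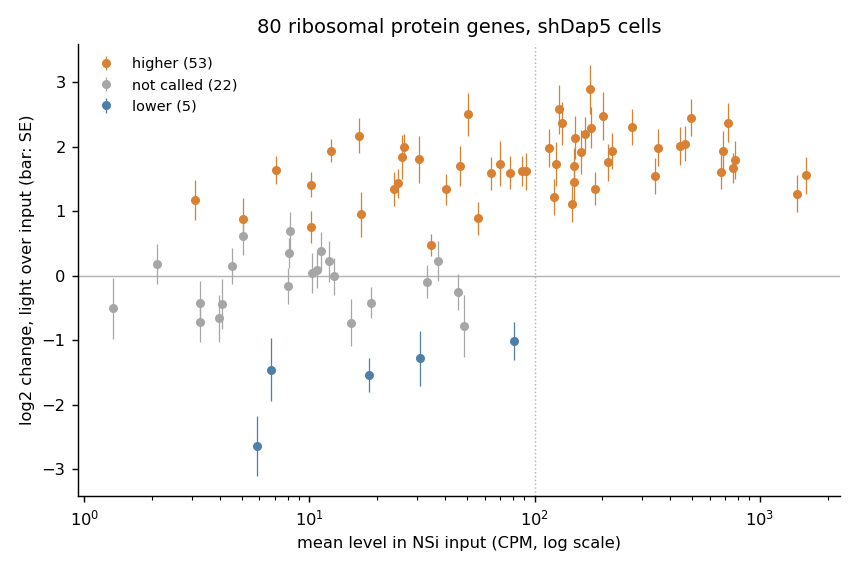
Log2 difference between shDap5 light polysomes and input for 80 ribosomal protein genes against their mean level in NSi input (CPM, log axis); bars are standard errors and the dotted line marks 100 CPM. All 30 genes right of the line are higher on light polysomes, and the 5 lower genes lie left of it.

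Other lists of the translation machinery differed in their counts, with no test between lists. Of 14 elongation factors and other mRNAs of the terminal oligopyrimidine (TOP) class, 10 were higher and 1 lower (median log2 1.22). Eef2, the translocation factor of elongation, stood at 10111, 13491 and 17346 CPM on light polysomes and 4828, 4966 and 4997 CPM in input (log2 1.47, SE 0.23, adjusted p = 5.66e-05), a rise in a protein of 858 residues. Of 38 initiation factor genes, 16 were higher and 7 lower (median 0.11). Eif4ebp1, the small repressor that binds eIF4E, stood at 554, 671 and 632 CPM on light polysomes and 110, 139 and 106 CPM in input (log2 2.39, SE 0.23, adjusted p = 8.77e-07). Eif1, which helps select the start codon, was 3.66-fold higher. Within the eIF3 complex the small subunits Eif3k (log2 1.77), Eif3g (1.17) and Eif3i (1.15) and the cap-binding subunit Eif3d (0.51, adjusted p = 0.0165) were higher, while the large subunits Eif3a (-1.13) and Eif3c (-0.63) were lower. Aminoacyl-tRNA synthetases, mostly long enzymes, had 13 of 20 members lower and 3 higher (median -0.77); Iars fell to 107 ± 11.7 CPM on light polysomes, against 214 ± 10.02 CPM in input (SD, n = 3 each), while Kars and Qars rose by log2 0.83 and 1.03. On heavy polysomes, compared with the same inputs, 12 of the 20 synthetases were higher and 0 lower, where 47.8% of all genes were called (26.7% higher, 21.2% lower).

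Messengers of mitochondrial proteins made in the cytosol were mostly higher on light polysomes. Of 75 mitochondrial ribosomal protein genes tested, 58 were higher and 5 lower (median log2 1.01). Of 75 genes of the respiratory chain and ATP synthase, 60 were higher and 7 lower (median 1.501). Atp5d, the delta subunit of the ATP synthase, stood at 906, 893 and 869 CPM on light polysomes and 214, 206 and 222 CPM in input (log2 2.06, SE 0.19, adjusted p = 6.63e-07). Ndufa13 of complex I was 5.22-fold higher and Cox5b of complex IV 5.08-fold higher. RNAs encoded in the mitochondrion itself are not read by cytosolic ribosomes, and only 7 of 13 passed the filter. Of these, 1 was called higher, ND4 (3072, 741 and 2005 CPM on light polysomes, 686, 976 and 571 CPM in input; log2 1.38, SE 0.56, adjusted p = 0.0459); its groups overlap. The ND4 call was lost with library totals alone (adjusted p = 0.0773), with the replicate block (0.132), without a filter on low counts (0.18), and without light 1, light 3 or any one input (0.05 to 0.231). The median of the 7 was 1.15 in light 1, -0.49 in light 2 and 0.28 in light 3, so the light libraries differed in their mitochondrial RNA. With these RNAs and the noncoding RNAs of the lists left out of the fit, 8002 genes were called, against 8016 with them.

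Lists of long proteins lay on the other side, as did the chaperones of the endoplasmic reticulum (median 484 residues). Of 34 giant proteins of the cytoskeleton, of ubiquitin transfer and of chromatin, 33 were lower and 0 higher (median log2 -1.39), the exception being Ahnak (0.01). By the annotation used, the principal isoforms of this list ran from 150 to 7393 residues (median 3905). Not every member thus counted as long in the length classes. Plec, which links intermediate filaments, stood at 59.9, 92.1 and 52.9 CPM on light polysomes and 204, 186 and 296 CPM in input (log2 -1.74, SE 0.23, adjusted p = 1.59e-05). Light 2 is the highest light library for Plec, and the median of the list was -1.74 in light 1, -0.97 in light 2 and -1.55 in light 3. Of 26 collagens and large matrix proteins tested, 21 were lower and 0 higher (median -1.85). Col18a1, a basement membrane collagen, fell to 92.9 ± 9.99 CPM on light polysomes, against 418 ± 64.3 CPM in input. Of 15 integrin genes tested, 11 were lower and 1 higher; Itgb1, the common beta chain, stood at 461, 507 and 369 CPM on light polysomes and 1827, 1269 and 2011 CPM in input (log2 -1.93, SE 0.30). Chaperones of the endoplasmic reticulum had 12 of 20 members lower and 3 higher (median -0.95); the disulfide isomerases Pdia3, Pdia4 and Pdia6 fell by log2 differences of -1.54 to -1.72, and Manf, a small member, rose by 1.02. Collagen and integrin genes lay nearer to input on heavy polysomes (medians -0.47 and -0.32).

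**Figure D4:**
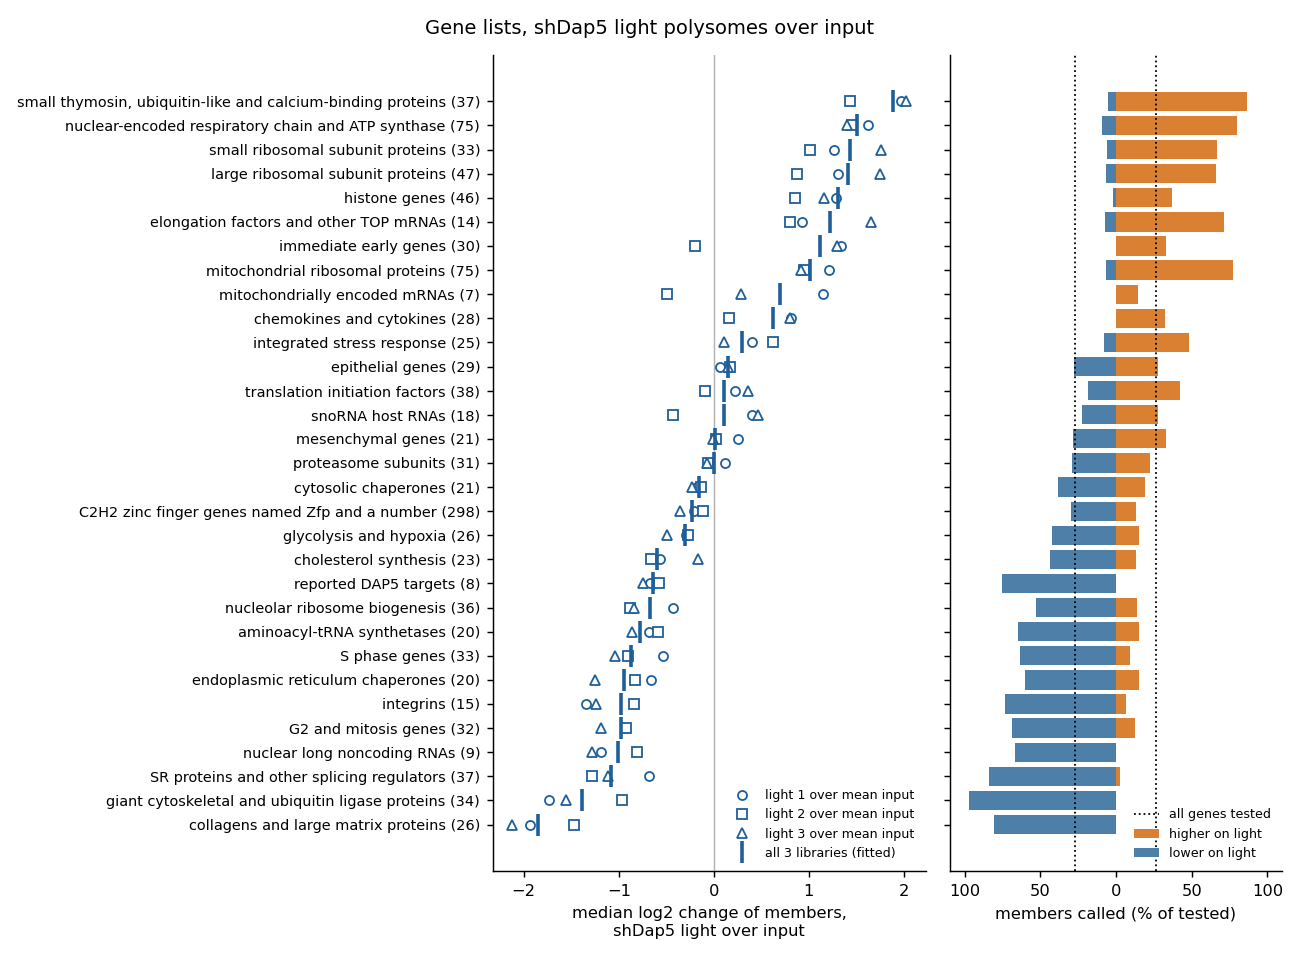
Left, median log2 difference between shDap5 light polysomes and input for each gene list (tested members in brackets), from the fit and from each light library over the mean input. Right, percent of tested members called higher or lower, with dotted lines at 26.4% and 26.8% for all genes; lists of short proteins lie at the top and the matrix, giant protein and splicing lists at the bottom, and light 2 stands apart for the immediate early and mitochondrially encoded lists.

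Genes of splicing regulation and of the cell cycle were mostly lower. Of 37 SR proteins and other splicing regulators tested, 31 were lower and 1 higher (median log2 -1.08). Ptbp2, a splicing repressor, stood at 18.1, 19.7 and 18.3 CPM on light polysomes and 66.3, 66.5 and 66.7 CPM in input (log2 -1.83, SE 0.14, adjusted p = 3.20e-07). Of 33 S phase genes 21 were lower and 3 higher (median -0.87), and of 32 genes of G2 and mitosis 22 were lower and 4 higher (median -0.98). Mcm4, a subunit of the replicative helicase, stood at 71.5, 43.4 and 57.3 CPM on light polysomes and 225, 133 and 241 CPM in input (log2 -1.80, SE 0.22), and Bub1, a mitotic checkpoint kinase, was 4.34-fold lower. Input 2 was the lowest input for Mcm4 and Bub1, yet lay above all light libraries. Of 36 nucleolar genes of ribosome biogenesis 19 were lower and 5 higher (median -0.68), the higher ones including the small proteins Nhp2 (log2 1.98) and Nop10 (1.79). Of 298 C2H2 zinc finger genes tested, out of 346, 89 were lower, a share near that of all genes (26.8%), and 39 higher (median -0.23). Histone genes ran the other way, with 17 of the 46 tested higher and 1 lower (median 1.31); only 46 of 78 passed the filter, and many replication-dependent ones were near 0 in these polyadenylated libraries. H2afj stood at 116, 84.1 and 91.4 CPM on light polysomes and 18.1, 15.1 and 15.5 CPM in input (log2 2.58, SE 0.25).

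Metabolic and housekeeping lists are read against 26.4% higher and 26.8% lower among all genes. Of 31 proteasome subunits 7 were higher and 9 lower (median log2 -0.0021), shares near those of all genes. Of 26 genes of glycolysis and hypoxia 4 were higher and 11 lower (-0.30), of 21 cytosolic chaperones 4 were higher and 8 lower (-0.15), and of 23 genes of cholesterol synthesis 3 were higher and 10 lower (-0.60). Within the chaperones the short partner Hspe1 was 2.42-fold higher and its long partner Hspd1 2.63-fold lower. Epithelial genes, with 8 of 29 higher and 8 lower, and mesenchymal genes, with 7 of 21 higher and 6 lower, had shares near those of all genes. Among the epithelial genes Rab25 was 3.80-fold higher; among the mesenchymal genes S100a4 was 3.90-fold higher and fibronectin, Fn1, 3.87-fold lower. Of 8 genes listed as reported DAP5 targets, Eif4g2 among them, 6 were lower and 0 higher; Apaf1 fell by log2 -1.46 and Cdk1 by -0.97, against -1.45 and -0.63 in NSi cells.

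Several messengers of the integrated stress response were higher on light polysomes. Of 25 genes of the integrated stress response, in which phosphorylated eIF2 favours mRNAs with upstream reading frames, 12 were higher and 2 lower (median log2 0.29, all genes -0.0037). Atf5, a transcription factor of this response, stood at 223, 231 and 263 CPM on light polysomes and 18.6, 66.5 and 21.6 CPM in input (log2 2.75, SE 0.34, adjusted p = 7.80e-06). Atf4, its central transcription factor, stood at 748, 523 and 829 CPM on light polysomes and 352, 288 and 364 CPM in input (log2 1.06), and on heavy polysomes differed from the same inputs by -0.27. Ddit3 stood at 166, 295 and 152 CPM on light polysomes and 25.1, 99.8 and 23.9 CPM in input (log2 2.04). Groups do not overlap for these 3 genes, and input 2 was the highest input for Atf5 and Ddit3. Ppp1r15a, a phosphatase subunit that reverses the response, was 3.44-fold higher, while the amino acid enzymes Asns (log2 -0.03), Psat1 (-0.06) and Phgdh (0.20) were not called.

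Immediate early genes differed between the light libraries. Of 30 such genes 10 (33.3%) were higher and 0 lower, against 26.4% higher and 26.8% lower among all genes. The share called higher was thus near that of all genes. The fitted median log2 was 1.12, but the medians of light 1, light 2 and light 3 were 1.34, -0.20 and 1.29. Egr1, a zinc finger transcription factor, stood at 945, 61.6 and 1187 CPM on light polysomes and 197, 95.8 and 144 CPM in input, and was not called (adjusted p = 0.142). Jund, a subunit of the AP-1 transcription factor, stood at 1855, 1387 and 2415 CPM on light polysomes and 510, 380 and 430 CPM in input (log2 2.10, SE 0.31, adjusted p = 3.60e-05). Light 2 lies below all inputs for Egr1 and above all inputs for Jund. Of 28 chemokine and cytokine genes tested 9 (32.1%) were higher, again a share near that of all genes, and 0 lower (median 0.63). Of the higher ones, Cxcl16 stood at 328, 335 and 301 CPM on light polysomes and 131, 130 and 103 CPM in input (log2 1.40, SE 0.15).

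Noncoding RNAs were no single class in these fractions. Of 1494 long noncoding RNAs tested, 402 (26.9%) were higher and 154 (10.3%) lower on light polysomes (median log2 0.45), whereas on heavy polysomes, compared with the same inputs, 55 were higher and 491 lower (median -0.74). Among all genes 26.4% were higher and 26.8% lower on light polysomes, and 26.7% higher and 21.2% lower on heavy polysomes. The share called higher on light polysomes was thus near that of all genes. Of 12936 protein-coding genes 3401 were higher and 3777 lower on light polysomes (median -0.05). Malat1, an RNA of nuclear speckles, stood at 40.4, 22.9 and 20.04 CPM on light polysomes and 321, 448 and 325 CPM in input (log2 -3.71, SE 0.34, adjusted p = 6.63e-07). Of 9 nuclear long noncoding RNAs tested, out of 15, 6 were lower and 0 higher; Firre fell by log2 -2.63, and Neat1, the scaffold of paraspeckles, stood at 126, 162 and 122 CPM on light polysomes and 266, 852 and 219 CPM in input. Input 2 held the most Malat1, Firre and Neat1 of the 3 inputs. Host RNAs of small nucleolar RNAs had 5 of 18 higher (27.8%) and 4 lower (22.2%), shares near those of all genes (median 0.11). Snhg8 stood at 289, 186 and 418 CPM on light polysomes and 80.01, 81.2 and 78.2 CPM in input (log2 1.90, SE 0.28), with -0.25 on heavy polysomes, while Snhg14 was 9.84-fold lower on light polysomes. Zfas1 and Epb41l4aos were also higher on light polysomes (log2 0.90 and 1.08) and stood at -1.24 and -1.01 on heavy polysomes. Of 44 other small noncoding RNAs listed, most of them small nucleolar and Cajal body RNAs, only 3 passed the filter (Rmrp, Rpph1 and Rn7sk). In edgeR 0 of the 3 were called and 1 had an unadjusted p under 0.05, Rmrp (adjusted p = 0.0711), which DESeq2 called (adjusted p = 0.00806).

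None of this was shown to be particular to the knockdown. In NSi cells light polysomes differed from input in 7746 genes (51.4%), 4025 (26.7%) higher and 3721 (24.7%) lower, and the length classes had medians of 1.77, 1.197, 0.34, -0.23, -0.61 and -1.02 from short to long. Across 15072 genes the shDap5 and NSi log2 differences, which share no library, had a Spearman's rho of 0.895. The test of shDap5 minus NSi called 0 genes in edgeR and 0 in DESeq2, with 320 genes (2.12%) in edgeR and 400 in DESeq2 under an unadjusted p of 0.05. With a replicate block in edgeR, 657 genes lay under that p and 0 were called. A share of 2.12% is below the 0.05 that no difference at all would give, so the test may be too strict. The share also depended on 1 library. Without shDap5 input 2, 1438 of 15345 genes lay under that p in edgeR. Without any other single shDap5 light or input library, 167 to 661 genes did. The 0 calls do not show that the arms are alike. Among genes of at least 5 CPM, the 5 with the smallest p-values on the higher side were Ndrg4, Tecpr1, Gprc5b, Igfbp7 and Mlycd, and on the lower side Zfpm2, LOC105246307, Il18rap, Neil3 and Malat1; none passed (adjusted p = 1). Zfpm2, a zinc finger cofactor of GATA factors, stood at 4.28, 4.50 and 5.36 CPM on shDap5 light and 15.5, 6.27 and 15.4 CPM in shDap5 input, with a log2 difference of -1.39 in shDap5 and -0.03 in NSi cells. For Eif4g2 the values were -0.66 and 0.35, a difference of -1.01 (SE 0.36, unadjusted p = 0.0119).

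Input 2 stood apart from the other shDap5 inputs. The mean absolute log2 difference over genes was 0.20 between inputs 1 and 3, and 0.45 and 0.49 between input 2 and each of them; the light libraries differed from each other by 0.43 to 0.48. Without input 2 the test of shDap5 minus NSi called 8 genes, 6 higher (Selp, Atf5, Bdh2, Cox6a2, Grb14 and Arl4d) and 2 lower (Fads2 and Zfpm2), where the full set of libraries called 0. For Atf5 the difference between the arms was 1.68 without input 2 (SE 0.23, adjusted p = 0.00728) and 0.86 with it (unadjusted p = 0.0737). For light over input, 7852 genes were called without input 2 and 7481 without both light 2 and input 2.

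**Figure D5:**
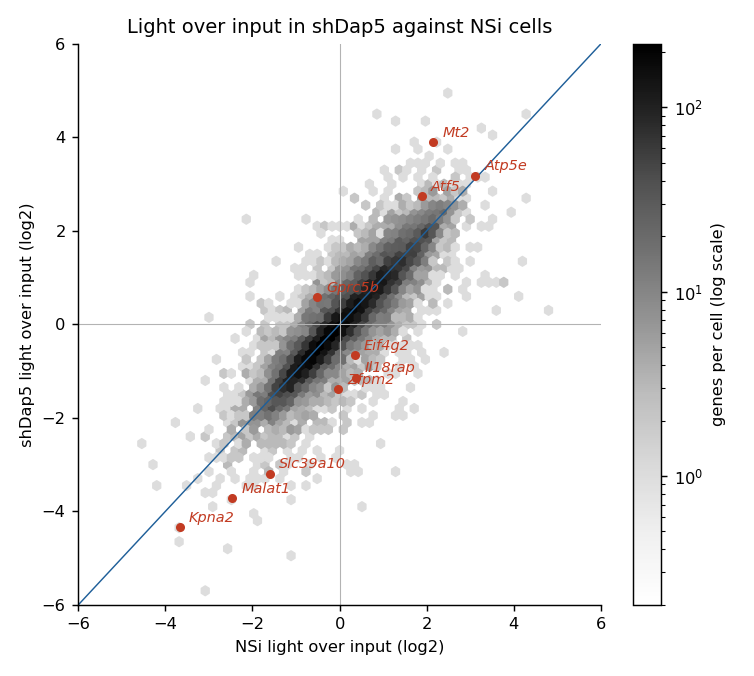
Log2 difference of light polysomes from input in shDap5 (vertical) against NSi cells (horizontal) for the tested genes, shaded by the number of genes, with the line of equal values. Most genes lie along the line; the 10 labelled genes were chosen from those named in the text, and none differed between the arms at an adjusted p under 0.05.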

How the data were processed

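The authors deposited whole-number counts per gene symbol, 1 file per library, with no normalization. Reads were aligned with Bowtie to mm9, per the submitters' processing notes; the sources used here do not give the counter, its annotation or its handling of shared reads. All 18 libraries were fitted together, with 1 mean for each of 6 groups, in edgeR 4.0.16 (R 4.3.3) with TMM scaling and tested by its robust quasi-likelihood F test, after filterByExpr at 10 counts and a total of 15. This left 12 residual degrees of freedom and 15072 of 35976 symbols. P-values were adjusted by Benjamini-Hochberg over all genes tested, and the standard error (SE) is the log2 difference divided by the square root of F. The fit was tested on simulated counts in which only a small part of the genes changed, unlike in these data. That test bears on the code and not on the results given here. DESeq2 1.42.0, other scalings and filters, subsets of libraries and a replicate block were alternatives.

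Coding and UTR lengths came from GENCODE vM21 (GRCm38), principal isoform first, in place of the planned RefSeq protein lengths, which were not at hand; 12881 tested genes matched. No coordinates of mm9 are given.

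Named genes were Eif4g2, the 12 largest rises and falls at 5 CPM or more without overlap, 8 of each at 100 CPM or more, up to 4 members of a list with the smallest p-values, and 5 of each direction in the test between the arms. Not every such gene is described, some items are not reported here, and other list members named (such as Atf4, Ddit3, Egr1, Eif3a, Eif3c, Eif3d, Eif3i, Zfas1 and Epb41l4aos) were chosen after their values were seen. Samples, lists and rules were chosen with earlier results of these data known. No list was tested as a set. Each count of 0 allows up to 3 counts in a library (0.0813 to 0.0970 CPM on light polysomes, 0.0433 to 0.0611 CPM in input), counting error only.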

Additional observations from a re-analysis of the deposited data

How the results depend on the processing

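For light over input, 6766 to 8733 genes were called over the alternatives tried, and no gene called both ways changed direction. Eif4g2 lost its call in the 6 shDap5 light and input libraries alone (log2 -0.645, adjusted p = 0.0728); with 1 library left out it ranged from -0.91 to -0.47. Spearman's rho with coding length was -0.41 without a filter on low counts and -0.60 to -0.51 otherwise. The test between the arms called 8 genes without input 2, 6 without light 2 and input 2 (added after seeing the data), and 0 to 8 over the libraries left out in turn. Tek, an endothelial marker near 0 CPM, turned to log2 -0.0684 without light 2 and input 2, and ranged from -0.0684 to 1.07 over the libraries left out; the cause was not tested. Library totals alone moved the median of all genes to -0.18, and the medians of the epithelial and mesenchymal lists to -0.03 and -0.17. Medians of 19 lists or length classes moved in that setting by at least the SD of the single light medians. Without input 2, 13 did. Among these were glycolysis and hypoxia (to -0.59), cholesterol synthesis (-0.92), S phase (-1.15) and mesenchymal genes (0.39). Split by the mean of shDap5 light and input, which contains the change itself, 37 of 37 ribosomal protein genes at 100 CPM or more were higher (added after seeing the data). Light and input of the same replicate number correlated at 0.46, 0.30 and -0.23 in shDap5 (deviations over 10308 genes). Pairs of unlike number ran from -0.52 to 0.49. Deviations from a mean of 3 libraries depend on each other, so these values do not settle whether the numbers pair the libraries. With a replicate block, 8733 genes were called (4280 higher, 4453 lower), and the test between the arms called 0. Depth limits genes near 0 CPM, among them histones, small nucleolar RNAs and markers of other cell types.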
